A study of Mus musculus with 6 samples.

Results

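The nuclear-encoded genes of the respiratory chain were examined in mouse pancreatic beta-cells that had been cultured with or without the other endocrine cells of the islet. They were taken by symbol: every gene of the deposited table whose name starts with Nduf, Sdh (Sdha to Sdhd and the Sdhaf genes), Uqcr, Atp5, or Cox followed by a digit, leaving out 7 pseudogenes named with -ps and the genes of the mitochondrial genome. This gave 101 of 13535 genes, of which 46 belong to complex I, 8 to complex II, 8 to complex III, 22 to complex IV and 17 to complex V. By role, 80 are subunits and 21 are assembly factors, which help to build a complex without staying in it. Cox6c2 and Ndufb4c, counted here as subunits by their symbols, are annotated as processed pseudogenes in GENCODE M21, and the other 99 as protein-coding. All 101 had a value above 0 in every library.

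Islets came from wild-type C57BL/6JRj male mice of 12 weeks. Dispersed islet cells were sorted by type, and sorted cells were reaggregated for 5 days. Pseudo-islets hold beta-cells together with alpha- and delta-cells, while pseudo-beta were seeded with beta-cells only. Beta-cells were then sorted again out of both kinds of cluster with antibodies to surface proteins, and their RNA was sequenced. There were 3 libraries of each kind from 3 independent experiments numbered 35, 36 and 37. The clusters are a culture model of primary cells, and the number of mice behind a library is not given in the sources used here. Values are the authors' normalized counts, which are estimated reads per gene scaled between libraries. They add up to between 17994346 and 19635287 per library, and the 10 most abundant genes, insulin among them, hold 40.9% to 44.97% of each.

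The respiratory chain passes electrons from NADH (complex I) and succinate (complex II) through complex III to oxygen at complex IV, and the proton gradient that builds up drives complex V, the ATP synthase. In beta-cells the ATP made from glucose closes ATP-sensitive potassium channels, the step that leads to calcium entry and insulin release. Most subunits are encoded in the nucleus and a few core subunits in the mitochondrial genome. Both genomes therefore have to be expressed for complexes I, III, IV and V, while complex II has no subunit from the mitochondrial genome.

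Nuclear respiratory genes are known for promoters with sites for NRF1, for ETS factors such as GABP, and for YY1, and cAMP-responsive genes for sites of CREB. The stretches below were chosen as examples of such letters: values of Sdha, Sdhd and Cox6a1 follow further on, and Ndufb2 is shown for its CREB letters. Each is 130 bases long, lies upstream of the gene's start in both RefSeq and GENCODE, comes from the RefSeq windows on GRCm38.p6, and reads 5′ to 3′ on the gene's strand. Capitals mark a match to GCGCANGCG (NRF1), CCGGAAG (ETS), or TGACGTCA (CREB, the cAMP response element) on either strand. Ndufc2, the gene with the highest fold change, stands first as an example with no such match.
Ndufc2, chr7:97399873-97400002, plus strand: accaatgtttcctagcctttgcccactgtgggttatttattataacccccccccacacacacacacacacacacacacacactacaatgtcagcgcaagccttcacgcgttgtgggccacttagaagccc
Sdha, chr13:74350281-74350410, minus strand: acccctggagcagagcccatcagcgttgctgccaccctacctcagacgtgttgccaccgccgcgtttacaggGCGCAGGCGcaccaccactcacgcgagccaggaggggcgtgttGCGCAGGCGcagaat
Sdhd, chr9:50603850-50603979, minus strand: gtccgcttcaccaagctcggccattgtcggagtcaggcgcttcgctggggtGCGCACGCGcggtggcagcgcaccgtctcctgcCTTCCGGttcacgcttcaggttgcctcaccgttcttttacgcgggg
Cox6a1, chr5:115348982-115349111, minus strand: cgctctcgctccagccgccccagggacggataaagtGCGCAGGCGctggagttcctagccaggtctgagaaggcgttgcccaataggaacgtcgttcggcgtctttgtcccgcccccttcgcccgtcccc
Ndufb2, chr6:39592435-39592564, plus strand: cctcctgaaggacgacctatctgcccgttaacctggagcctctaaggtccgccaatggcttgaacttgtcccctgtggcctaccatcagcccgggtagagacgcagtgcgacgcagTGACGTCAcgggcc
In Sdha the NRF1 letters begin 98 and 55 bases before the RefSeq start, in Cox6a1 117 bases before it, and in Sdhd 79 bases before it with the ETS letters at 46. The CREB letters of Ndufb2 begin 14 bases before its start.

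Windows of 250 bases before and 50 after the start were given for 83 of the 101 genes. NRF1 letters stood in 24 of these 83 (28.9%), beside 16.1% of the 9801 genes of the table with a window and 7.03% of all 27025 genes with one. ETS letters stood in 27 (32.5%, beside 20.9% and 9.93%), and the YY1 letters AAGATGGCG in 9 (10.8%, beside 3.78% and 1.64%). The palindrome TGACGTCA stood in 4 (4.82%, beside 3.89% and 2.03%), namely Ndufa10, Ndufa11, Ndufb2 and Uqcrfs1, named after their letters were seen. No motif holds the letters of another, and 52 of the 83 genes held at least 1 of them. Genes with the NRF1 letters had a median log2 fold change between pseudo-islets and pseudo-beta of 0.02 and those without of 0.10. With the CREB letters the 4 genes had a median of 0.13 and lay between -0.03 and 0.14. These are matches of letters and were not tested as binding sites.

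No respiratory chain gene passed the test between beta-cells from pseudo-islets and from pseudo-beta. The test was limma on log2(value + 1), with Benjamini-Hochberg adjustment over all 13535 genes and a threshold of 0.05 on the adjusted p. It called 0 of the 101 genes, beside 0.0591% of all genes. When libraries of the same experiment were compared with each other, as a replicate block, the count was again 0, beside 0.539% of all genes. At an unadjusted p under 0.05 it was 1 gene without the block, higher in pseudo-islets (0.99%, beside 5.40% of all genes, 2.73% in that direction and 2.67% in the other). With the block it was 14 genes (13.9%, beside 11.9%), of which 13 were higher in pseudo-islets (12.9%, beside 6.69%) and 1 was lower (0.99%, beside 5.22%). The lowest adjusted p was 0.737 without the block and 0.062 with it, both for Ndufc2.

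The fitted differences were small. Log2 fold changes of pseudo-islets over pseudo-beta ran from -0.47 (Cox6a2) to 0.48 (Ndufc2), so no gene differed by more than 1.5-fold, beside 13.3% of all genes. For 73 of the 101 genes the whole 95% confidence interval lay within a 1.5-fold change either way (72.3%, beside 27.3% of all genes), and with the block for 94 (93.1%, beside 42.0%). The median standard error was 0.17 for these genes and 0.27 for all genes. The means of the respiratory chain genes ran from 28.5 to 9431 normalized counts, with a median of 1885 beside 240.4 for all genes, as counts not divided by length.

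Most values leaned towards pseudo-islets, by little. The log2 fold change was above 0 for 74 genes (73.3%, beside 51.4% of all genes), and its median was 0.09 beside 0.01. Within experiments 35, 36 and 37 the median difference was 0.06, 0.13 and 0.09. In all 3 experiments pseudo-islets were higher for 41 genes (40.6%, beside 18.0%) and lower for 5 (4.95%, beside 15.0%), so the direction was the same in 46 (45.5%, beside 33.1%) and differed between experiments for the other 55. The count above 0 and the median depended on how libraries were scaled, and so did those of all genes. When libraries were scaled to equal totals without their 10 most abundant genes, the median of all genes moved from 0.01 to -0.05. Then 58 respiratory chain genes were above 0 (57.4%, beside 42.3% of all genes), with a median of 0.03. After quantile normalization these were 57 genes (56.4%, beside 50.5%) and 0.03, beside a median of 0.003 for all genes. Without the pseudo-islets of experiment 37, which leaves its pseudo-beta library without a partner, the median was 0.002 and 51 genes were above 0. With all of experiment 37 left out, and the block, the median was 0.075 and 76 genes were above 0. Other abundant genes leaned the same way: of 4359 genes outside the respiratory chain that averaged 500 or more normalized counts, 62.8% were above 0, with a median of 0.05.

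**Figure D1:**
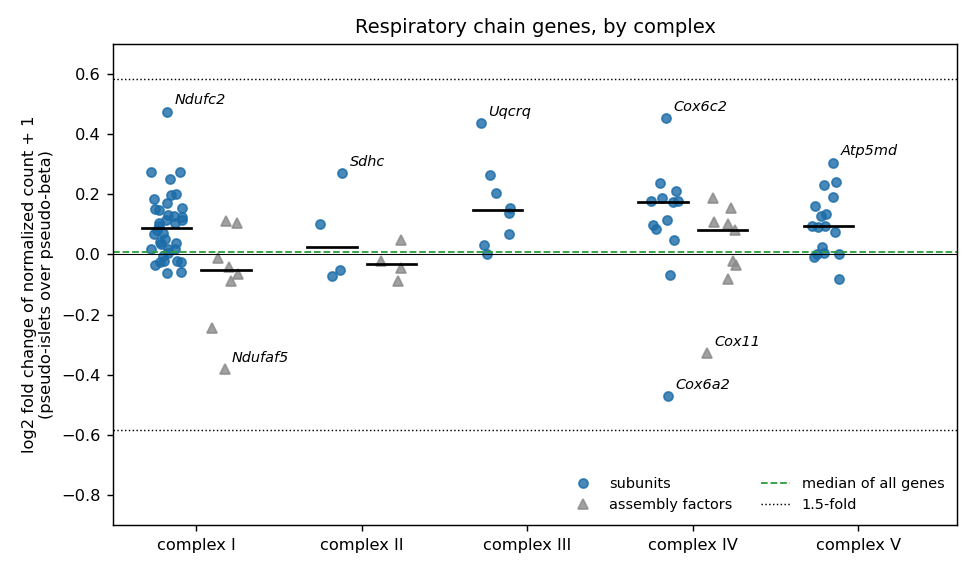
Log2 fold change of each of the 101 genes (vertical axis, pseudo-islets over pseudo-beta, on log2 of the normalized count + 1) by complex (horizontal axis). Circles are subunits, triangles are assembly factors, black bars are the medians of each, the green dashed line is the median of all 13535 genes, and dotted lines mark a 1.5-fold change; every gene lies between the dotted lines, and Ndufc2 and Cox6a2 lie farthest from 0.

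Most of the genes above 0 were subunits. Of the 80 subunits, 66 had a log2 fold change above 0 and the median was 0.10, while of the 21 assembly factors 8 were above 0 and the median was -0.02. The difference between the 2 kinds was not tested. Of the assembly factors 15 changed direction between experiments, and in experiment 36 they had 11 of 21 genes higher in pseudo-islets and a median of 0.06. All 9 genes whose 2 groups of libraries did not overlap were subunits, higher in pseudo-islets (8.91%, beside 5.63% of all genes in that direction, and 0 in the other, beside 5.13%, or 10.8% for both): Ndufb3, Ndufb5, Ndufc2, Sdhc, Uqcrc2, Uqcrfs1, Cox5a, Atp5c1 and Atp5pb. With 3 libraries against 3, an exact two-sided permutation test of a single gene cannot go below p = 0.1. The 5 genes lower in all 3 experiments were the assembly factors Ndufaf6, Ndufaf8, Sdhaf1 and Cox11 and the subunit Cox6a2; apart from Cox6a2, they were chosen after their values were seen. Assembly factors also had a median level of 219 normalized counts per kilobase of transcript beside 2735 for subunits, and a median transcript length of 1451 bases beside 709. The part of level and length in these counts was not tested.

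Complex I, the NADH dehydrogenase, is the largest group. Its 7 core subunits, which include the carriers of the flavin and the iron-sulfur clusters, had log2 fold changes from -0.06 to 0.15 with a median of 0.08. Ndufs7, a core subunit next to the quinone site, was the lowest of the 38 subunits. Its normalized counts in experiments 35, 36 and 37 were 1617, 1463 and 1715 with pseudo-islets and 1653, 1744 and 1603 with pseudo-beta, and values below follow the same order. The groups overlapped, and the log2 fold change was -0.06 (SE 0.13).

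The 31 accessory subunits of complex I, which surround the core and hold it together, had a median of 0.09, and 25 of them were above 0. Ndufc2, a small subunit of the membrane arm (ENSMUSG00000030647, chromosome 7 of GRCm38, 97400003 to 97407802), had the highest fold change of all 101 genes. It measured 2464, 2502 and 2710 normalized counts (pseudo-islets) and 1789, 1619 and 2146 (pseudo-beta). Every pseudo-islet library was above every pseudo-beta library, and the log2 fold change was 0.48 (SE 0.14, 95% interval 0.16 to 0.79), with an unadjusted p = 0.0076 and an adjusted p = 0.737 in limma. With the replicate block the interval was 0.26 to 0.69 and the adjusted p = 0.062, which misses the threshold. GENCODE places Gm16053 over Ndufc2 on the same strand, so reads of the pair may not be told apart. Ndufb8, the most abundant complex I gene per kilobase of transcript, had 4417, 4504 and 4999 normalized counts (pseudo-islets) and 4709, 4396 and 5438 (pseudo-beta), with overlapping groups and a log2 fold change of -0.06 (SE 0.13). Ndufb11, encoded on the X chromosome, was close to 0 as well, with a log2 fold change of 0.03 (SE 0.15).

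Ndufa4 is listed with complex I by its symbol although its protein is found in complex IV. Its values were 1561, 1662 and 2927 normalized counts (pseudo-islets) and 1270, 1396 and 2420 (pseudo-beta). Pseudo-islets were higher in each experiment, but the step from experiments 35 and 36 to experiment 37 was larger than the step between the groups. The log2 fold change was 0.27 (SE 0.28), with adjusted p = 0.998 in limma and 0.287 with the block. The 8 assembly factors of complex I had a median of -0.05. Ndufaf5, which hydroxylates Ndufs7, was the lowest of all 21 assembly factors, with 131, 165 and 145 normalized counts (pseudo-islets) and 211, 145 and 229 (pseudo-beta); the groups overlapped, and the log2 fold change was -0.38 (SE 0.26, adjusted p = 0.988 in limma). Ndufaf6 gave 194, 212 and 234 against 264, 213 and 286.

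Complex II, the succinate dehydrogenase, is also an enzyme of the TCA cycle and has no subunit from the mitochondrial genome. Its catalytic pair, the flavoprotein Sdha and the iron-sulfur protein Sdhb, did not differ beyond their spread. Sdha measured 7945, 7674 and 6853 normalized counts (pseudo-islets) and 9070, 8043 and 6648 (pseudo-beta), with a log2 fold change of -0.07 (SE 0.14). Sdhb measured 4304, 4407 and 4771 against 4680, 4536 and 4742, with a log2 fold change of -0.05 (SE 0.11), and it was among the genes that varied least, by 1.11-fold between its lowest and highest library. The membrane anchors Sdhc and Sdhd were higher in pseudo-islets in each experiment. Sdhc (ENSMUSG00000058076, chromosome 1, 171127165 to 171150603) measured 1654, 1887 and 1644 (pseudo-islets) and 1560, 1429 and 1309 (pseudo-beta). Its groups did not overlap, and its log2 fold change was 0.27 (SE 0.14), with adjusted p = 0.964 in limma and 0.347 with the block. Sdhd gave 4255, 4424 and 4120 against 4236, 3826 and 3867 (log2 fold change 0.10, SE 0.12). The 4 assembly factors had a median of -0.03; Sdhaf1, which inserts iron-sulfur clusters into Sdhb, gave 394, 508 and 495 against 410, 575 and 505.

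All 8 genes of complex III, the cytochrome bc1 complex, had a log2 fold change of 0 or more, with a median of 0.15. Uqcrq, a small membrane subunit (ENSMUSG00000044894, chromosome 11, 53427922 to 53430831), had the highest at 0.44 (SE 0.26). Its values were 2946, 3160 and 4856 normalized counts (pseudo-islets) and 1940, 2443 and 3851 (pseudo-beta). The groups overlapped because both libraries of experiment 37 were high, while within each experiment pseudo-islets were higher. The adjusted p was 0.969 in limma without the block and 0.065 with it, the second lowest of the 101 genes, and neither passes. Uqcr10, another small subunit, was the lowest, with 1862, 2110 and 2476 against 1797, 2111 and 2563, a log2 fold change of 0.00 (SE 0.17). The core proteins Uqcrc1 and Uqcrc2 and the Rieske protein Uqcrfs1 gave 0.03, 0.27 and 0.14. Cytochrome c1, encoded by Cyc1, belongs to complex III but falls outside the symbol rule, and it went the other way: 1545, 1543 and 1550 normalized counts (pseudo-islets) and 1752, 1751 and 1638 (pseudo-beta), with no overlap, a log2 fold change of -0.15 (SE 0.13) and adjusted p = 0.998 in limma.

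In complex IV, cytochrome c oxidase, 11 of 13 nuclear subunits were above 0 and the median was 0.17. Cox5a, a subunit on the matrix side, was the highest among those averaging 50 or more normalized counts. It measured 1743, 1586 and 1716 (pseudo-islets) and 1568, 1234 and 1499 (pseudo-beta), without overlap, and its log2 fold change was 0.24 (SE 0.15, adjusted p = 0.973 in limma). Several subunits come as isoforms, of which the broadly expressed ones were measured here: Cox8a had a log2 fold change of 0.05, Cox4i1 of 0.10, Cox7b of 0.17, Cox6b1 of 0.18 and Cox7a2 of 0.21. Their tissue-specific partners would fall under the symbol rule, but none of them is among the genes of the deposited table, so they have no values here. The highest log2 fold change of complex IV, 0.45 (SE 0.44), was that of the pseudogene Cox6c2 at 26, 34 and 40 normalized counts against 20, 24 and 28; it shares 45.2% of its 75-base runs with Cox6c. Cox7a2l, a protein that links complex IV to complex III, was the most abundant complex IV gene per kilobase and had 9136, 9925 and 8567 normalized counts (pseudo-islets) and 10132, 9750 and 9077 (pseudo-beta), a log2 fold change of -0.07 (SE 0.11). Among the 9 assembly factors, the copper chaperone Cox17 was the highest at 0.19 (SE 0.17), and Cox11, which delivers copper to the enzyme, gave 99, 139 and 169 against 128, 167 and 217.

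Cox6a2 was the only subunit lower in pseudo-islets in all 3 experiments. It is the isoform of subunit 6a known from heart and skeletal muscle, and Cox6a1 is the isoform of most other tissues. Cox6a2 (ENSMUSG00000030785, chromosome 7, 128205435 to 128206387) measured 493, 636 and 1070 normalized counts (pseudo-islets) and 721, 1133 and 1096 (pseudo-beta). The difference was wide in experiments 35 and 36 and small in experiment 37, at -0.55, -0.83 and -0.03 on the log2 scale, and the groups overlapped. The log2 fold change was -0.47 (SE 0.28, 95% interval -1.10 to 0.15), with adjusted p = 0.973 in limma and 0.259 with the block. Cox6a1 measured 2892, 2839 and 3263 against 2714, 2730 and 2854, a log2 fold change of 0.11 (SE 0.12). Per kilobase of transcript, Cox6a2 made up 12.5%, 15.8% and 21.6% of the sum of both isoforms (pseudo-islets) and 18.2%, 25.8% and 24.4% (pseudo-beta), so that the share was lower in pseudo-islets within each experiment and the ranges overlapped. Itgad lies over Cox6a2 on the opposite strand.

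**Figure D2:**
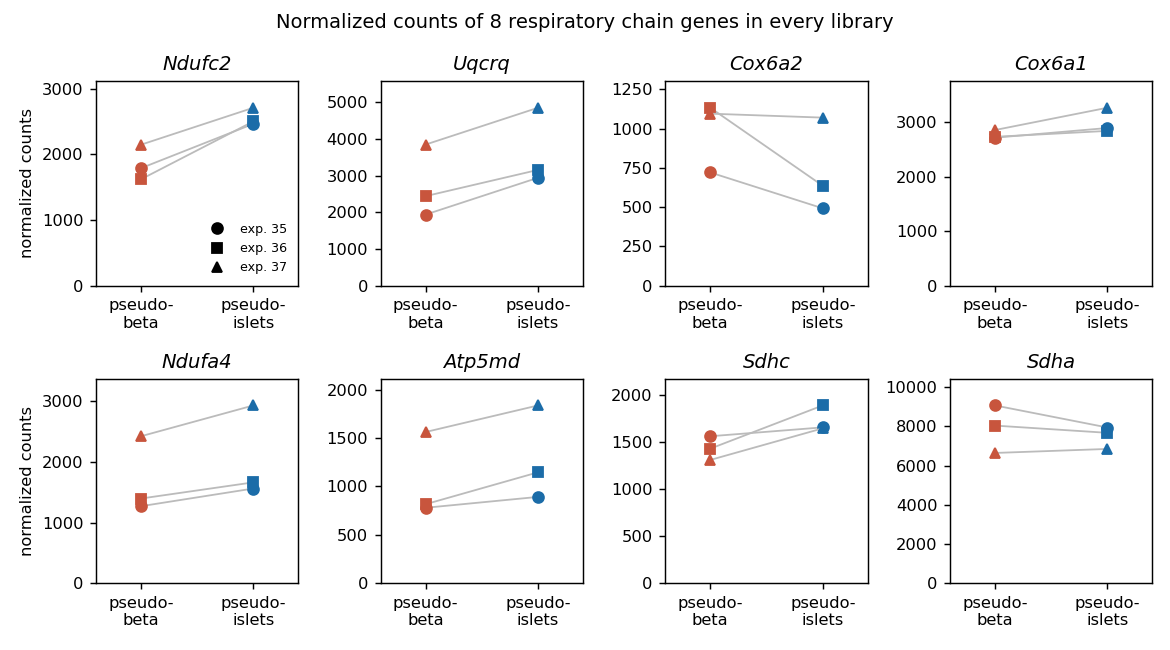
Normalized counts (vertical axis, starting at 0) of 8 respiratory chain genes in each library, by group (horizontal axis), with 1 symbol per experiment and grey lines joining the libraries of an experiment. Ndufc2 and Sdhc show no overlap between the groups; Uqcrq, Ndufa4 and Atp5md are highest in experiment 37 in both groups, and Cox6a2 is lower in pseudo-islets along all 3 lines, least in experiment 37.

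Complex V, the ATP synthase, had 15 of 17 genes above 0 and a median of 0.09. In its F1 part, where ATP is made, the catalytic subunit Atp5b measured 6484, 6335 and 7409 normalized counts (pseudo-islets) and 6546, 6170 and 7502 (pseudo-beta), a log2 fold change of 0.00 (SE 0.13), named after its values were seen. The c-ring, which protons turn, is encoded by 3 genes for the same mature protein. Atp5g1 was the most abundant complex V gene per kilobase and made up 54.8% to 62.8% of the summed level of these 3 genes per kilobase. It measured 3961, 3518 and 4990 (pseudo-islets) and 3329, 3079 and 4202 (pseudo-beta), with a log2 fold change of 0.23 (SE 0.17, adjusted p = 0.99 in limma and 0.287 with the block). Atp5g2 and Atp5g3 gave -0.01 (SE 0.14) and 0.09 (SE 0.17). All of the 75-base runs of Atp5g2 and 59.6% of those of Atp5g1 also occur in transcripts of other genes, so these levels depend on how the authors' counting shared such reads.

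The 4 peripheral stalk genes, which hold the F1 part still, lay between 0.07 and 0.24. Among the small membrane subunits, Atp5md, which helps the enzyme to form dimers, was the highest of complex V. It measured 893, 1147 and 1837 normalized counts (pseudo-islets) and 780, 817 and 1562 (pseudo-beta), and its log2 fold change was 0.31 (SE 0.31), with adjusted p = 0.998 in limma and 0.325 with the block. Atp5k was the lowest, with 341, 420 and 633 against 462, 418 and 556 and a log2 fold change of -0.08 (SE 0.24). For both genes the libraries of experiment 37 were the highest of their group.

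As sums, the genes of each complex held nearly the same share of the library in both groups. In experiments 35, 36 and 37, all 101 genes together made up 1.09%, 1.14% and 1.24% of a pseudo-islet library and 1.09%, 1.12% and 1.25% of a pseudo-beta library. Complex I took 0.44%, 0.459% and 0.52% against 0.432%, 0.456% and 0.524%. Complex II was the only complex whose share was lower in pseudo-islets in all 3 experiments, with 0.106%, 0.107% and 0.0985% against 0.117%, 0.111% and 0.101%. Complex III was higher in all 3, with 0.123%, 0.126% and 0.139% against 0.115%, 0.122% and 0.133%. In each of these shares the ranges of the groups overlapped. Library totals were higher in pseudo-islets in each experiment, at 18637128, 19045598 and 19635287 against 18092205, 17994346 and 18380415. Before division by these totals, complex II summed to 19835, 20435 and 19343 normalized counts against 21209, 19888 and 18610. That sum was lower in pseudo-islets in experiment 35 only. The sums got no test.

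**Figure D3:**
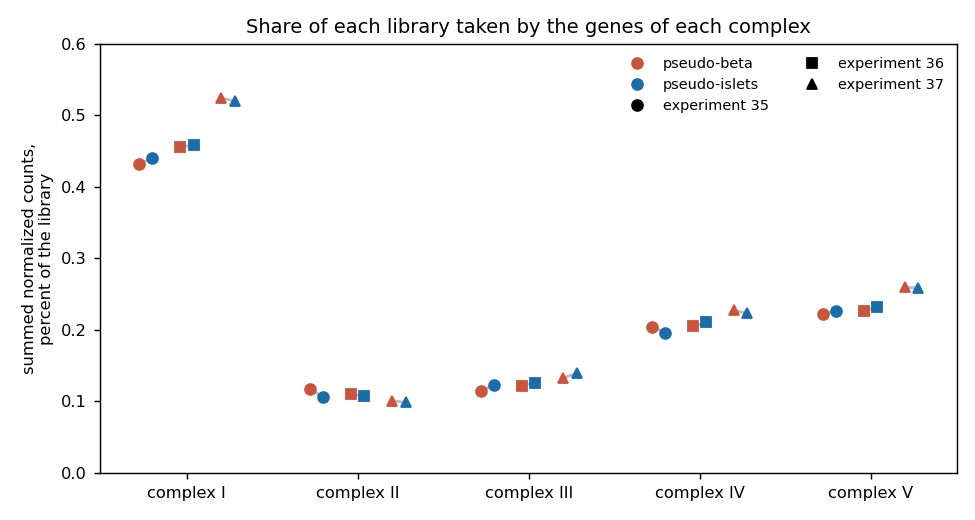
Summed normalized counts of the genes of each complex as a percent of the library (vertical axis, starting at 0), by complex (horizontal axis), with colours for the groups and symbols for the experiments. Libraries of an experiment lie close together, and complexes I, III, IV and V are highest in experiment 37 in both groups, complex II lowest.

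Levels also moved between experiments. The range over the 6 libraries, which includes any difference between the groups, had a median of 0.50 on the log2 scale. Uqcrq varied most, by 2.50-fold between its lowest and highest library, followed by Atp5md, Ndufa4 and Cox6a2 at 2.35-fold, 2.30-fold and 2.30-fold; Ndufa6 varied least, by 1.10-fold. In experiment 37, 82 genes were higher than in experiments 35 and 36, averaged over both groups, with a median log2 difference of 0.23 beside 0.00 for all genes. The shift was similar in both groups: across the 101 genes, which are not independent replicates, the differences of experiment 37 in pseudo-islets and in pseudo-beta correlated at 0.75.

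Up to 3000 bases, this shift fell with transcript length, taken as the shortest principal transcript of a gene in GENCODE M21. Respiratory chain genes are short, with a median length of 780 bases beside 2620 for all genes. The 48 of them under 750 bases had a median of 0.37 in experiment 37 over the others, the 30 from 750 to under 1500 bases 0.16, and the 19 from 1500 to under 3000 bases 0.08. Other genes averaging 500 or more normalized counts showed the same order, at 0.25, 0.04 and -0.16. From 3000 bases on the order did not continue: the other abundant genes were at -0.14 and all genes, at -0.09 in the class before, were at 0.02. Only 4 respiratory chain genes are that long, with a median of -0.06. Between pseudo-islets and pseudo-beta, the medians of the other genes in the 4 length classes were 0.08, 0.07, 0.06 and 0.03, and those of the respiratory chain genes 0.10, 0.04, 0.11 and 0.11. The part of transcript length in the values was not tested, and a day of sorting, of library preparation or of RNA extraction cannot be told apart from the experiment.

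**Figure D4:**
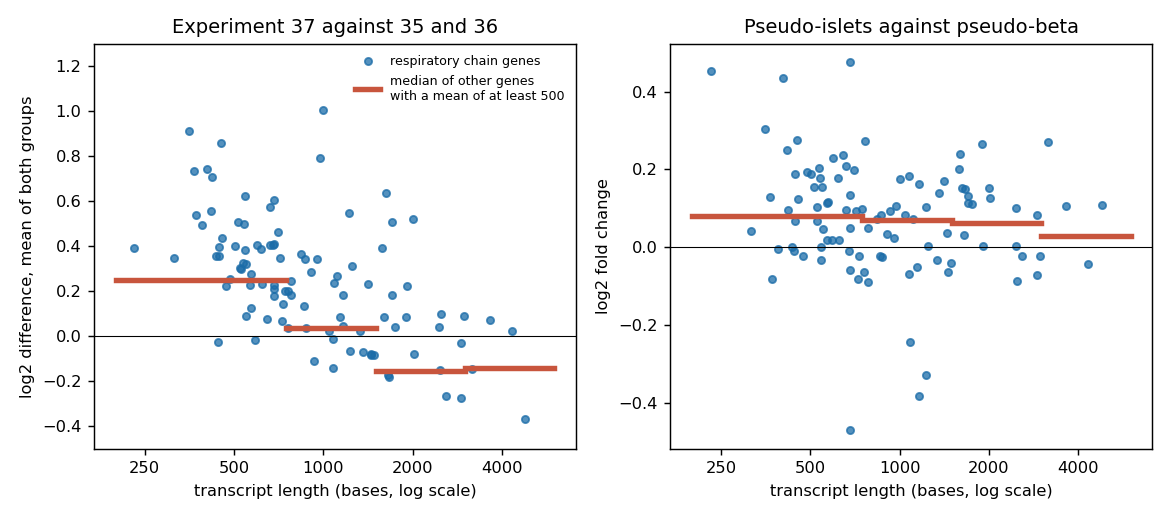
Transcript length in bases (horizontal axes, log scale) against the log2 difference of experiment 37 from experiments 35 and 36, averaged over both groups (left), and against the log2 fold change of pseudo-islets over pseudo-beta (right), 1 point per respiratory chain gene; bars are medians of other genes averaging 500 or more normalized counts in the same length classes. Short genes lie high on the left, while on the right the points spread around the bars at all lengths.

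To rank genes by level, normalized counts were divided by transcript length in kilobases, which depends on the transcript chosen: for 10 of the 101 genes the principal transcripts differ in length by more than 1.5-fold, Atp5g1, Cox17, Atp5md and Uqcrq among them. Cox7a2l in complex IV stood highest with a mean of 8765 normalized counts per kilobase, ahead of Uqcrq in complex III with 7900 and Ndufb8 in complex I with 6976. Their ranges over the 6 libraries overlapped, at 7962 to 9416, 4791 to 11989 and 6465 to 7997, but libraries can also be compared one by one. Cox7a2l was above Ndufb8 in 6 of 6 libraries. It was above Uqcrq in 4 of 6, and Uqcrq was above Ndufb8 in 4 of 6, so the place of Uqcrq in the order is not fixed beyond its spread. Atp5g1 led complex V with 6454, and Sdhb led complex II with 4005. In complex II, Sdhc had 498 normalized counts per kilobase beside 2657 to 4005 for the other 3 subunits, whose libraries all lay above it. Among the assembly factors, Cox17 stood highest at 4467.

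**Figure D5:**
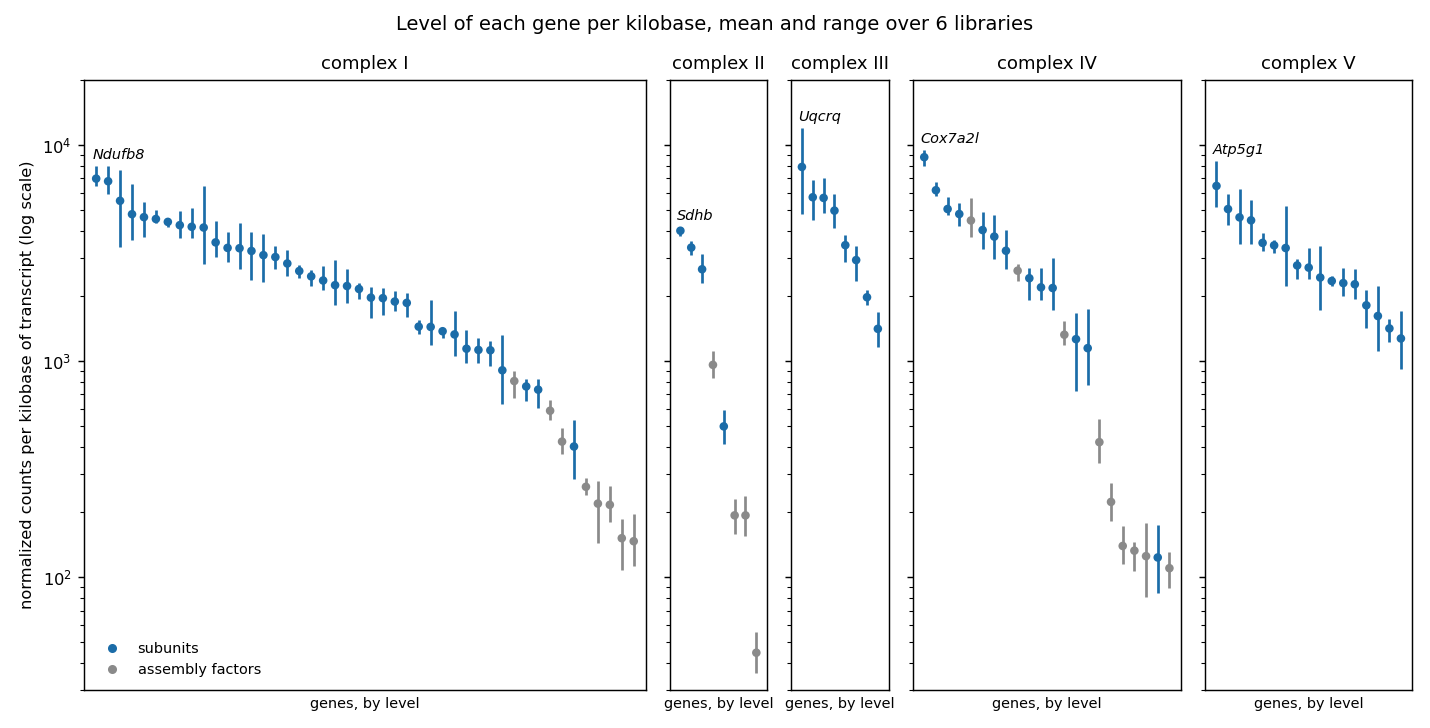
Level of each gene in normalized counts per kilobase of transcript (vertical axis, log scale) by complex (panels), with the genes of a panel in order of level along the horizontal axis and the leading gene named; points are means and bars the range over the 6 libraries, blue for subunits and grey for assembly factors. Cox7a2l, Uqcrq, Ndufb8, Atp5g1 and Sdhb lead their complexes, and the lowest gene of complexes I, II and IV is an assembly factor.

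Other genes of the pathway were counted on lists and are given by their counts. Of the 13 subunits encoded in the mitochondrial genome, 0 passed the test with or without the block, 7 were above 0 and 6 below, and the median log2 fold change was 0.01. That median lies between members that went both ways, from -0.77 for mt-Nd4l to 3.00 for mt-Nd3, a complex I subunit listed at 0 in the pseudo-beta library of experiment 35; both were named after their values were seen. In experiments 35, 36 and 37, 11, 3 and 6 of the 13 were higher in pseudo-islets. Their sum was 131082 to 238182 normalized counts in pseudo-islets and 143165 to 260365 in pseudo-beta, highest in experiment 37 in both. Among 7 other subunits and electron carriers, 0 passed and 5 were above 0. Cycs, which encodes cytochrome c, the carrier between complexes III and IV, measured 3167, 3266 and 3971 normalized counts (pseudo-islets) and 2614, 2518 and 3635 (pseudo-beta) (log2 fold change 0.26, SE 0.17, adjusted p = 0.976 in limma and 0.276 with the block). Of 31 further assembly factors 0 passed, and 19 were above 0, with a median of 0.04.

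The list of regulators of respiratory genes holds 14 genes, including some that act on the mitochondrial genome, such as Polg and Polrmt. Of these 14, 3 were above 0 and 11 below in log2 fold change, the median being -0.23, and 0 passed with or without the block. Experiment 35 went the other way, with 9 of 14 higher in pseudo-islets and a median of 0.13, against -0.40 and -0.31 in experiments 36 and 37, and 8 of the 14 changed direction between experiments. Yy1, whose letters stand in 9 of the promoter windows, measured 227.5, 222.5 and 322.4 normalized counts (pseudo-islets) and 329.5, 400.3 and 386.1 (pseudo-beta), without overlap (log2 fold change -0.55, SE 0.22, adjusted p = 0.88 in limma and 0.269 with the block). Nrf1 itself gave 525, 481 and 315 against 445, 569 and 444, with overlapping groups, and Gabpa, an ETS factor, 345, 390 and 307 against 309, 372 and 237.

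Of 17 genes listed for the TCA cycle, with Pdha1, Pdhb and Dlat of pyruvate dehydrogenase among them, 14 were above 0. Of the 17, 0 passed without the block and 1 passed with it. The gene that passed was Fh1 (adjusted p = 4.0e-04), the fumarase, which acts on the product of complex II. It measured 3651, 3607 and 4307 normalized counts (pseudo-islets) and 1536, 1579 and 2302 (pseudo-beta), a log2 fold change of 1.11 (SE 0.17), with adjusted p = 0.091 in limma without the block. The 7 carriers and channels that exchange ATP, ADP and phosphate had 6 genes above 0 and 0 that passed. Ribosomal protein genes, which are short and abundant as well, leaned like the respiratory chain: 60 of 78 mitochondrial ones were above 0 with a median of 0.10, and 79 of 86 cytosolic ones with a median of 0.12, and 0 passed in either list.

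The sorted cells were checked against marker lists. All 8 beta-cell markers were in the table, with a sum of 6890108 to 8264135 normalized counts per library, while 0 of 8 acinar, 0 of 6 stromal, 0 of 6 endothelial and 1 of 6 immune markers were. Sums of the markers of other endocrine cells were higher in pseudo-islets: the 7 of 12 alpha-cell markers in the table summed to 10368 to 15027 in pseudo-islets and 7508 to 9978 in pseudo-beta, the 5 of 8 delta-cell markers to 1994 to 2925 against 859 to 1001, and the 3 of 4 PP-cell markers to 23521 to 27366 against 17163 to 19911. The sums rest on few genes. Most of the PP-cell sum came from 1 gene with a mean of 20601 normalized counts, beside 1491 and 215 for the others. That list was made of Ppy, Aqp3, Chgb and Tspan8. Whether these genes are specific to PP-cells was not tested, so the sum is no measure of PP-cell RNA. Of the alpha-cell markers 4 of 7 were above 0, and 1 passed the test without the block and 3 with it; of the delta-cell markers 2 of 5 were above 0 and 2 passed in both fits; of the PP-cell markers 3 of 3 were above 0, and 0 passed without the block and 2 with it. The delta-cell list holds Pdyn, which the paper reports as a gene of beta-cells that falls when alpha- and delta-cells are missing. That list is therefore not specific to delta-cells. Each of the 13535 genes has 3 or more libraries that reach 10 normalized counts. A marker under 10 in all pseudo-beta libraries is therefore listed only if every pseudo-islet library reaches 10. How far this selection helps markers to pass, or raises their sums in pseudo-islets, was not tested. Gcg was at 0 in 1 pseudo-beta library and Sst in 2. The part of RNA from these cells in the values of the respiratory chain genes was not tested, and fewer transcripts per cell cannot be told apart from fewer cells of a type.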

How the data were processed

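From 5 ng of RNA of the sorted beta-cells, the authors made libraries depleted of ribosomal RNA, sequenced them as read pairs of 75 bases, aligned them with STAR 2.7.6a to GRCm38 and quantified genes with RSEM 1.3.1. The deposited signal values are normalized counts that the authors made from the RSEM estimates with DESeq2 1.26.0 in R 3.6.3. They are not whole reads: at most 26.8% to 42.9% of the values between 0.3 and 40 in a library lie within 0.02 of a multiple of the best step tried. The depth in reads is therefore not known, the standard errors give the precision, and a count test was not used. The annotation release, a filter on low genes and the use of strand in counting are not given in the sources used here. Columns of the authors' own comparison were not used.

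Values were compared as log2(value + 1) with limma 3.58.1 (R 4.3.3, prior variance following mean expression) over all 13535 genes, without a block, and Benjamini-Hochberg adjustment over all of them. With the experiment as a replicate block the same fit was repeated. The experiment numbers come from the sample labels. Deviations from the group means correlated at 0.119, 0.121 and 0.325 between libraries of an experiment and at -0.203 to 0.0922 between libraries of different ones, so every pair was above the minimum of 0.1 set for pairing. P-values without the block rest on the spread between the 3 libraries of a group. With the block they rest on the spread of the differences within experiments. In both fits limma moderates the variance of a gene over all genes. No 2 libraries held identical values. The fit was tested on simulated data.

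The 101 genes, the gene lists and the tests were chosen with earlier results of these data known. Complexes follow the symbols. Genes are named if they passed the test, had the highest or lowest log2 fold change of a complex among subunits averaging 50 or more normalized counts or among assembly factors, were the most abundant of a complex per kilobase, had an unadjusted p under 0.05 without overlap, belong to an isoform family or are subunits of complex II; other genes were named after their values were seen. Lengths, positions and overlaps come from GENCODE M21 on GRCm38. By these transcripts, 50 of the 101 genes overlap another gene, 40 of them on the opposite strand, and 27 share more than 20% of their runs of 75 bases with transcripts of other genes, so that the reads of the latter may have been split between copies.

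Alternatives were the block, scaling without the 10 most abundant genes, quantile normalization, at least 10 normalized counts in every library, a mean of at least 50, pseudocounts of 0.1 and 10, a prior variance without trend, and leaving out each library or experiment. The block combined with another scaling or prior was added after the data were seen.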

Additional observations from a re-analysis of the deposited data

How the results depend on the processing

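Under every alternative run, 0 of the 101 genes passed the test, with or without the replicate block. The block moved the calls among all genes from 8 to 73 and the respiratory chain genes with an unadjusted p under 0.05 from 1 to 14, and it changed no direction. The median log2 fold change of these genes, 0.09, was 0.033 when libraries were scaled without their 10 most abundant genes and 0.030 after quantile normalization, with or without the block. The median of all genes, 0.01, was -0.049 and 0.0035 in these settings. For the respiratory chain genes the median lay between 0.0023 and 0.15 when single libraries were left out. The former was without the pseudo-islet library of experiment 37 and the latter without its pseudo-beta library. With a whole experiment left out, and the block, the median was 0.101 (without 35), 0.068 (without 36) and 0.075 (without 37). The count of genes whose groups do not overlap, 9, was 4 under the first scaling, all higher in pseudo-islets, and 7 after quantile normalization, with 4 higher and 3 lower. Under both scalings, as in the main fit, the share of respiratory chain genes without overlap in either direction was below that of all genes.

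Of 540 values for 27 named genes under the alternatives, 503 kept their direction and 37 reversed, none of them past the threshold; 16 genes never reversed. With the 10 most abundant genes left out of the scaling, and likewise with the block, Cox8a was -0.012, Ndufb11 -0.025 and Uqcr10 -0.058. After quantile normalization, and likewise with the block, they were -0.041, -0.060 and -0.076. Uqcr10 was -5.2e-06 with a pseudocount of 10. Leaving out single libraries gave ranges of -0.046 to 0.030 for Atp5g2, -0.0084 to 0.23 for Atp5g3, -0.33 to 0.12 for Atp5k, -0.13 to 0.55 for Cox7b, -0.0077 to 0.10 for Cox8a, -0.012 to 0.56 for Ndufa4, -0.11 to 0.12 for Ndufb11, -0.13 to 0.026 for Ndufb8, -0.19 to 0.032 for Sdha and -0.12 to 0.13 for Uqcr10. With the replicate block, leaving out an experiment gave 0.021 and 0.0019 for Atp5g2 (35 and 37), 0.095 for Atp5k (35), -0.0020 for Cox8a (37), -0.058 for Ndufb11 (37), 0.033 for Ndufs7 (36) and -0.025 for Uqcr10 (35). The cause of these changes was not tested.

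The precision rests on 3 libraries a group. With a median standard error of 0.17 for a log2 fold change without the block and 0.10 with it, a p that misses the threshold does not show that values did not differ.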
